A study of Mus musculus with 3 samples.

Results

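The respiratory chain and ATP synthase genes of the nuclear genome were followed in RNA sequencing data from the mouse dentate gyrus, where granule neurons are the main cell type. They were taken by name as the rows whose symbol starts with Ndufa, Ndufb, Ndufc, Ndufs, Ndufv, Sdh followed by a to d, Uqcr, Cox4 to Cox8 or Atp5, which gave 94 rows, each with its own symbol, of the 24458 rows of the deposited table. By complex they were 45 rows for complex I, 6 for complex II, 8 for complex III, 18 for complex IV and 17 for complex V. The series concerned the response of this tissue to neuronal activity. The 3 libraries analysed here share 1 label, E24, and carry replicate numbers 1, 2 and 3, each from a separate C57BL/6 mouse aged 8 weeks. The sample labels give no genotype or treatment and do not spell out E24; the name of the deposited table carries the marks WT and ECT, also not spelled out. There was no second group, so the data describe levels and their spread between animals. The values are RPKM, which scales reads by gene length and by the mapped reads of the library, and summed to 384523, 369261 and 350942 in replicates 1, 2 and 3. Read depth is unknown.

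Oxidative phosphorylation makes most of the ATP of neurons, which spend it largely on ion pumping and synaptic transmission. Complexes I and II pass electrons from NADH and succinate to ubiquinone, complex III passes them on to cytochrome c, and complex IV passes them to oxygen. Complexes I, III and IV pump protons, and complex V, the ATP synthase, uses the gradient. Complex II is wholly nuclear-encoded, while the other complexes also hold subunits made from mitochondrial DNA, which are not among the genes described here. Many of these genes also have processed pseudogenes, and how reads shared with such copies were assigned is not given in the sources used here.

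Some limits of the table touch every value below. Values appeared displaced by a few rows between libraries, so that what stands on a row in 1 library can stand a few rows away in another. Each member is therefore described by the value of its own row and by the highest value within 5 rows on either side on the same chromosome, the row itself included. Neither is taken as the level of the gene: an own-row value may belong to a neighbour, and the highest value nearby may too. All rows of the table, treated in the same way, give the background. Of the 7 fixed granule neuron markers, 1 row (Rfx3) lay above 1 RPKM by limma, or 14.3%, where 18.3% of all rows did. The row of the granule neuron factor Prox1 read 1.58, 39.3 and 0 RPKM, and the highest within 5 rows read 39.5, 39.3 and 40.5 RPKM. The 7 markers summed to 71.6, 214 and 152 RPKM at their own rows. The Csf1r and Flt1 rows, markers of microglia and endothelium, were listed at 0 in every library, but other rows of these lists were not. Summed own rows were 71.5, 61.0 and 56.6 RPKM for the 4 microglial markers and 35.5, 30.3 and 28.8 RPKM for the 3 endothelial ones. For the 4 astrocyte markers they were 12.8, 200 and 189 RPKM, in replicates 2 and 3 mostly at Gfap (199 and 186 RPKM). The oligodendrocyte markers summed to 29.3, 5.69 and 17.3 RPKM and the CA field markers to 31.6, 70.2 and 54.7 RPKM. By own row 3 of 4 CA field, 3 of 4 microglial and 1 of 3 endothelial markers passed. Of the astrocyte and oligodendrocyte markers 0 of 4 each did. These counts are too small to set against the 18.3% of all rows, and the part of such cells in member rows was not tested.

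The promoters of these genes are known for sites of nuclear respiratory factor 1 (NRF1) and of the ETS factor GABP, which regulate many nuclear genes of mitochondria. RefSeq promoters (GRCm38.p6) were found for 78 of the 94 members, with 84 start sites, and the 250 bases before each start were searched on both strands. The NRF1 letters, GCGCA then any base then GCGC, were found in 15 of 84 member promoters, or 17.9%, against 5.18% of 21263 promoters of protein-coding genes and 3.74% of all 32851 promoters. The ETS letters CCGGAAG were found in 14 of 84, or 16.7%, against 8.98% of coding and 6.91% of all promoters. Either was present in 26 of 84, or 31.0%, against 13.4% of coding promoters. The CCAAT box letters CCAAT were in 42.9% against 35.4% of coding promoters, the TATA box letters TATAAA in 8.33% against 11.6%, and the YY1 letters AAGATGGCG in 2.38% against 0.720%. Median GC content was 57.2% in member promoters and 55.6% in coding promoters. These are matches of letters within the window and were not tested as binding sites. Shown first are 4 promoters of members with high rows and a match, with the NRF1 and ETS letters, on either strand, in capitals.

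Cox6a1 (chr5:115348959-115349208, minus strand): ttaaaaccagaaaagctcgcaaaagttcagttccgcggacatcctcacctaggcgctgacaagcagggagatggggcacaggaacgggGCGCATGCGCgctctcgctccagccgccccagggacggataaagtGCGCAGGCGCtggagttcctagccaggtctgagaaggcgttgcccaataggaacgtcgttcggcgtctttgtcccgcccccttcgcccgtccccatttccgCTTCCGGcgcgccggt

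Cox6b1 (chr7:30626115-30626364, minus strand): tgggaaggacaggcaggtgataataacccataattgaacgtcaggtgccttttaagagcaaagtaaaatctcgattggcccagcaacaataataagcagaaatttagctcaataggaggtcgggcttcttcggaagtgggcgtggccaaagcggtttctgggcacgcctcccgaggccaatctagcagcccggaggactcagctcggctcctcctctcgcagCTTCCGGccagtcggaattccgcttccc

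Ndufa8 (chr2:36049339-36049588, minus strand): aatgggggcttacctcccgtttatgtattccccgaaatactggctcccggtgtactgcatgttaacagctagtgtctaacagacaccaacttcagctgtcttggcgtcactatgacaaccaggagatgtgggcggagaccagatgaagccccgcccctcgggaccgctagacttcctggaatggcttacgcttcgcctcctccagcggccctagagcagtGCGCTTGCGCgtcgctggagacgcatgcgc

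Atp5j (chr16:84834977-84835226, minus strand): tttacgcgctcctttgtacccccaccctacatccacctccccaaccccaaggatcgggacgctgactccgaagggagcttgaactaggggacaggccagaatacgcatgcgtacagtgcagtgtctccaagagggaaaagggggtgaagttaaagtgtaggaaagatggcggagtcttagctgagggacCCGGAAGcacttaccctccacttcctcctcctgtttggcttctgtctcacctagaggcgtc

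Cox6a1 and Cox6b1 encode complex IV subunits, and the former carried 2 NRF1 matches and 1 ETS match. Ndufa8, of complex I, carried an NRF1 match and its row held 127, 107 and 14.1 RPKM, with 105 RPKM 2 rows below in replicate 3. Atp5j, the coupling factor 6 subunit of the ATP synthase, carried an ETS match at the second of its 2 listed starts. In mm9 the Atp5j locus overlaps by 452 bases that of Gabpa, which encodes the DNA-binding subunit of GABP itself. The promoters of 2 complex IV isoforms of heart and skeletal muscle follow. Neither holds a match to the NRF1 or ETS letters, nor did any of the 4 promoters found for restricted isoforms. Either match was in 13.4% of coding and 31.0% of member promoters, so 0 of 4 is too few to set against those shares. The 4 promoters shown first were picked for holding a match.

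Cox7a1 (chr7:30183921-30184170, plus strand): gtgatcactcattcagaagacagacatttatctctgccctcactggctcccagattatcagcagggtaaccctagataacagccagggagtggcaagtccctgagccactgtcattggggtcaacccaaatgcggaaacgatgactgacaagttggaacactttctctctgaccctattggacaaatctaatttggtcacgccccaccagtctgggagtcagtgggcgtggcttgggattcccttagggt

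Cox8b (chr7:140900447-140900696, minus strand): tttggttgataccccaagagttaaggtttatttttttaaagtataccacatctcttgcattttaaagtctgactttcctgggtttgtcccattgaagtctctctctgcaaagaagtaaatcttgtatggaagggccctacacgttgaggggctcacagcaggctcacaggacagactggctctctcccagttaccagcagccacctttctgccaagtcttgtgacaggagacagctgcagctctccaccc

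Respiratory chain rows held higher values than the table as a whole, with medians 15.9-fold above those of all rows at the own row and 2.93-fold above them across windows. The median own-row value of the 94 members was 11.7, 10.4 and 23.5 RPKM in replicates 1, 2 and 3, against 1.019, 0.911 and 0.930 RPKM over all rows. The median of the highest value within 5 rows was 127.6, 128.2 and 117.9 RPKM, against 43.5, 41.8 and 42.4 RPKM over all rows. The windowed medians thus had a mean of 124.6 ± 5.80 RPKM (SD, n = 3), and the own-row medians one of 15.2 ± 7.19 RPKM. By own row, 34 of 94 members, or 36.2%, lay above 1 RPKM (limma, one-sided, adjusted p under 0.05), where 18.3% of all rows did. Read with their neighbours, 70 members, or 74.5%, lay above 50 RPKM by the same test, where 27.3% of all rows did. With each library left out in turn, 15 of the 34 own-row calls held every time. Without replicate 3 the own-row count was 19, and without replicate 2 the windowed count was 46. The highest value within 5 rows reached 100 RPKM in every library for 50 members, or 53.2%, against 15.5% of all rows. Rows of cytosolic ribosomal proteins, another abundant class, stood within 5 rows of 5 members. For the other 89 members 66 windowed values passed, or 74.2%, against 25.4% of all rows without such a neighbour.

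**Figure D1:**
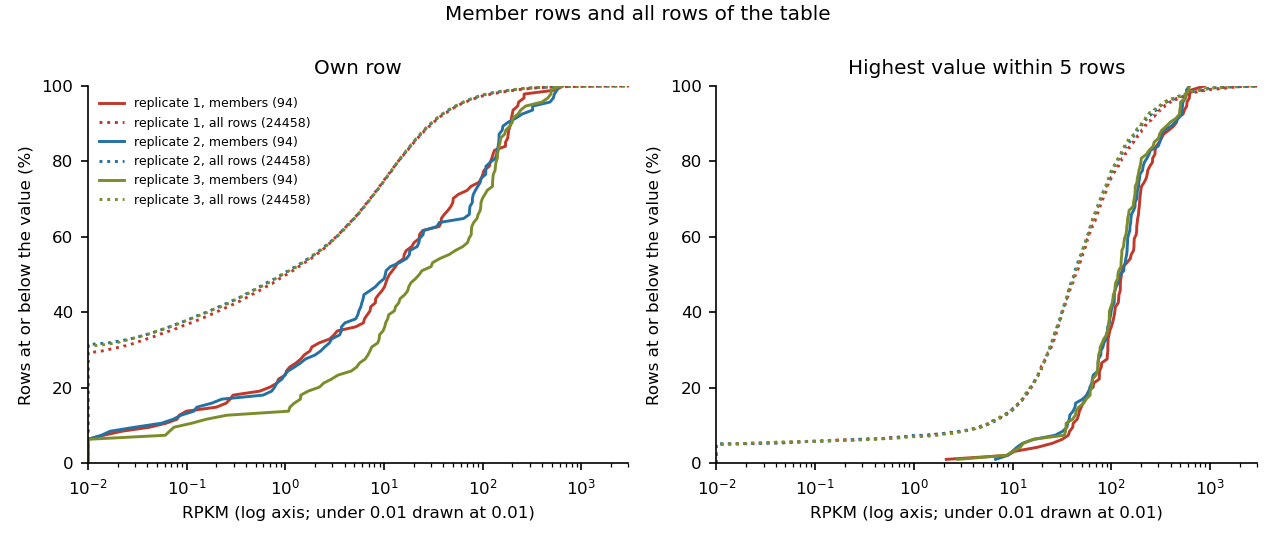
Cumulative distribution of RPKM (x axis, log scale) over the 94 member rows (solid) and all 24458 rows (dotted), for the own row (left) and the highest value within 5 rows (right), 1 line per library; the y axis is the percent of rows at or below a value. The member lines lie to the right of all rows in both panels, and the 3 libraries lie closer together on the right, with member medians of 127.6, 128.2 and 117.9 RPKM.

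At their own rows members were often high in some libraries and low in the rest. The own row reached 50 RPKM in 1 or 2 of the 3 libraries for 46 members, or 48.9%, against 10.4% of all rows. It did so in all 3 for 12 members and in none for 36. Over all rows, 2551 reached it in 1 or 2 libraries, 319 in all 3 and 21588 in none. Among rows that reached 50 RPKM, unevenness was thus common in the whole table and not particular to members. The row of Cox4i1, the broad isoform of complex IV subunit 4 (chromosome 8, 123192189 to 123198109, mm9), held 1.11, 532 and 491 RPKM. In replicate 1, where it is low, the next row held 622 RPKM, so that the highest value within 5 rows was 622, 532 and 491 RPKM. Replicate 1 was thus far below the others at the row itself, and the 3 libraries lay within 1.5-fold across the window. Values of the 3 libraries within 1.5-fold of each other, with the highest at 20 RPKM or more, were found at the own row for 13 members, or 13.8%, where 4.11% of all rows met this. Among rows with a value of 20 RPKM or more these were 13 of 65 member rows and 15.2% of 6621 rows. Across windows of 5 rows 80 members met it, or 85.1%, where 50.9% of all rows did. Of the 80, 68 did not meet it at the own row. Among windows with a value of 20 RPKM or more it was met in 87.9% of 91 members and 62.7% of 19880 rows.

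The highest value stood at the member's own row in 95 of the 282 values, or 33.7%, against 13.8% over all rows. It stood there in 26, 31 and 38 members in replicates 1, 2 and 3. It lay at the row or right beside it in 179 values, or 63.5%, against 30.8% over all rows. All 3 libraries had it at the own row for 11 members, or 11.7%, against 4.87% of all rows. None had it there for 42 of the 94 members, a smaller share than the 18232 of all 24458 rows. The same row held it in every library for 20 members, or 21.3%, a share near the 21.8% of all rows.

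**Figure D2:**
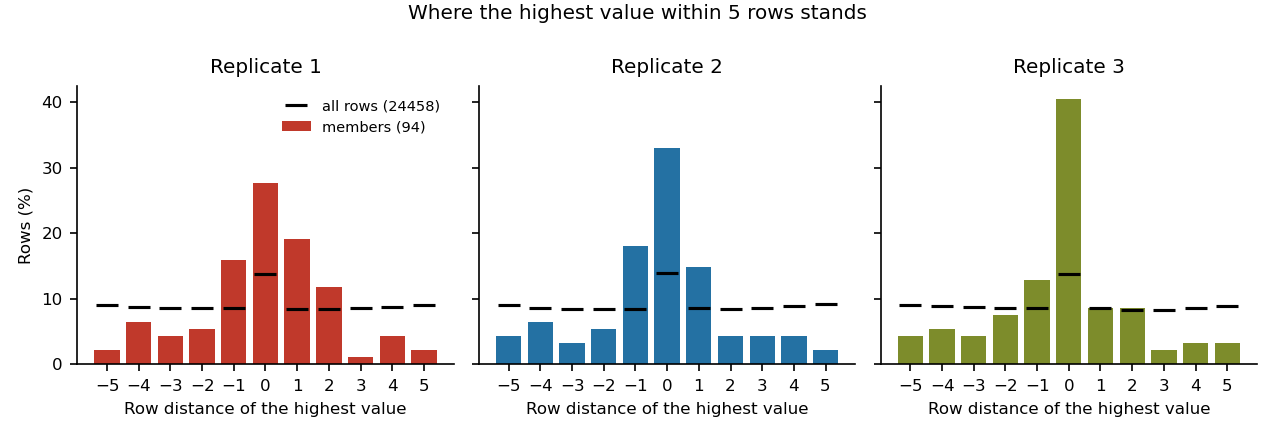
Percent of rows (y axis) by the distance in rows, from -5 to 5, at which the highest value within 5 rows stood (x axis), for the 94 members (bars) and all 24458 rows (black marks), 1 panel per library. The members peak at distance 0, at 27.7%, 33.0% and 40.4% in replicates 1, 2 and 3, where all rows are near 13.8%.

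Complex I, NADH dehydrogenase, is the largest complex and takes in electrons from NADH. Its 45 rows had median own-row values of 13.1, 10.02 and 22.7 RPKM and windowed medians of 119.0, 102.3 and 102.5 RPKM. Own rows passed for 18 of them, or 40.0%, and windowed values for 33, or 73.3%, against 18.3% and 27.3% of all rows. The accessory subunit row Ndufb8 held 179, 143 and 126 RPKM and Ndufa9 held 75.9, 73.5 and 70.2 RPKM, both highest at their own row in every library. Ndufa2 at 103, 78.5 and 77.4 RPKM and Ndufb5 at 91.4, 73.1 and 76.7 RPKM were also high in all libraries, as was the core subunit row Ndufs3 at 170, 94.3 and 171 RPKM. All 5 of these rows were above 70 RPKM in every animal. In log2(RPKM + 1), Ndufb8 exceeded the level by 6.22 (SE 0.20), with an adjusted p of 0.00150 by limma.

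Other complex I rows were low or uneven. The Ndufa11 row held 1.28, 1.42 and 1.11 RPKM, and 31.9, 37.6 and 34.8 RPKM was the highest within 5 rows. Ndufa10 held 2.20, 2.94 and 3.42 RPKM, with 79.4, 65.8 and 64.0 RPKM nearby. Ndufb10 held 0.251, 14.3 and 0.112 RPKM, and 582, 579 and 564 RPKM stood 1 or 2 rows away. In replicate 1 that value stood on the row of Rpl3l, named for a ribosomal protein, and in replicates 2 and 3 on that of Meiob. The window of Ndufs7 reached 619, 527 and 504 RPKM 3 or 4 rows below, and that of Ndufa7 463, 405 and 362 RPKM 2 or 3 rows above. In replicates 1 and 3 these stood on rows of ribosomal protein genes, Rps15 and Rps28. Ndufb2 held 6.33, 6.24 and 6.45 RPKM, steady in all libraries, with 159, 122 and 109 RPKM always in the row above. Ndufa5 and Ndufa6 were high at their own row in replicate 3 alone, at 96.1 and 111 RPKM, while replicates 1 and 2 had 124 and 98.9 RPKM near Ndufa5 and 156 and 117 RPKM near Ndufa6. Which of these neighbouring values belong to the named genes was not resolved. Ndufa4, named for complex I and later placed in complex IV, held 24.6, 321 and 20.8 RPKM, with 428 and 309 RPKM 1 row above in replicates 1 and 3.

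The 7 catalytic core subunits of complex I, which carry the flavin and the iron-sulphur clusters or form the quinone site, differed widely between libraries at their own rows. Of their own rows 2 of 7 passed, or 28.6%, where 18.3% of all rows did. These were Ndufs3 and Ndufs1, the latter not without replicate 2 or replicate 3 (limma, adjusted p = 0.109 and 0.123). Of their windowed values 4 passed, or 57.1%, where 27.3% of all rows did. Such shares over 7 rows are imprecise. Ndufs1, the largest subunit, held 10.4, 5.16 and 5.28 RPKM, with 49.7, 43.6 and 46.8 RPKM as the highest nearby. Ndufv2 held 15.8, 0 and 7.20 RPKM, and its window reached 79.9, 150 and 147 RPKM. Ndufs8 and Ndufv1, both on chromosome 19, did not line up even across windows. The Ndufs8 row held 0.823, 1.06 and 272 RPKM, with 2.13, 11.1 and 272 RPKM as the highest nearby. Ndufv1, the flavin-binding subunit, held 2.81, 2.51 and 9.25e-43 RPKM, with 92.9, 6.73 and 2.79 RPKM nearby.

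Complex II, succinate dehydrogenase, belongs to both the chain and the tricarboxylic acid cycle, and its 4 subunit rows were each at 50 RPKM or more in 1 or 2 libraries, or, for Sdhd, in none. Sdha, the flavoprotein, held 1.55, 119 and 2.44 RPKM, with 128 and 117 RPKM 1 row below in replicates 1 and 3. Sdhb, the iron-sulphur subunit, held 10.1, 78.6 and 1.08 RPKM and 96.6, 78.6 and 74.1 RPKM across the window. The membrane anchor rows differed likewise: Sdhc held 0.0219, 64.0 and 62.8 RPKM, and Sdhd held 13.8, 0.227 and 10.4 RPKM with 75.6, 59.6 and 55.6 RPKM in the row below. Windowed values of the 4 subunits thus lay between 55.6 and 128 RPKM in every library. The windowed median of the 6 complex II rows, 75.7 ± 7.76 RPKM (SD, n = 3), was the lowest of the 5 complexes, a difference that was not tested. Of the 6 complex II rows 2 passed by own row, or 33.3%, where 18.3% of all rows did. Both were assembly factors, Sdhaf1 and Sdhaf2. Sdhaf2 did not pass without replicate 2 (limma, adjusted p = 0.0654) or replicate 3 (0.0758). By window 3 of the 6 passed, where 27.3% of all rows did. Such shares over 6 rows are imprecise.

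Complex III, the cytochrome bc1 complex, had a window above 50 RPKM in each of its 8 rows (limma), where 27.3% of all rows did. The small-subunit rows were the highest: Uqcrq held 49.9, 250 and 242 RPKM, Uqcr11 226, 182 and 45.6 RPKM, Uqcrh 195, 7.17 and 150 RPKM and Uqcr10 203, 0.780 and 146 RPKM. In each of these the low library had 307, 175, 154 and 168 RPKM, in the same order, within 2 rows. The core protein rows were low in every library. Uqcrc1 held 3.11, 3.55 and 2.94 RPKM, with 110, 91.6 and 84.0 RPKM in the row just above it. Uqcrc2 held 0.551, 0.180 and 0.0743 RPKM, with 118, 96.7 and 93.3 RPKM nearby. The Rieske iron-sulphur protein row Uqcrfs1 held 0.276, 84.1 and 81.0 RPKM, and Uqcrb, the ubiquinone-binding protein, held 0.0841, 147 and 141 RPKM. Replicate 1 was the low library in both, and 94.9 and 171 RPKM stood within 2 rows in it. By own row 2 of the 8 passed, Uqcr11 and Uqcrq, or 25.0%, where 18.3% of all rows did. Uqcr11 did not pass without replicate 1 (limma, adjusted p = 0.0726) or replicate 2 (0.0794), nor Uqcrq without replicate 2 (0.0764) or replicate 3 (0.0796).

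Complex IV, cytochrome c oxidase, held the highest member rows that repeated in all 3 libraries. Cox6a1 (chromosome 5, 115795662 to 115798964, mm9) held 646, 519 and 495 RPKM, and Cox6c held 552, 480 and 456 RPKM. Cox5a held 263, 217 and 202 RPKM, Cox7a2 held 183, 140 and 127 RPKM and Cox7a2l held 132, 96.1 and 99.3 RPKM, all highest at their own row in each library. Cox7a2l encodes a factor that joins complexes III and IV into supercomplexes, and C57BL/6 mice are known to carry a shorter form of it. The Cox6a1 row exceeded the level by 8.11 (SE 0.51) in log2(RPKM + 1), with an adjusted p of 0.00429 by limma. Cox5b, in contrast, held 0.0995, 0.0732 and 0.0608 RPKM, and 383, 310 and 302 RPKM stood 1 or 2 rows below it. Cox8a held 50.2, 36.3 and 613 RPKM, and replicates 1 and 2 had 878 and 621 RPKM 2 rows away. Cox7c held 181, 21.6 and 0.0670 RPKM, with 155 and 143 RPKM in the row above in replicates 2 and 3. Of 18 complex IV rows, 7 passed by own row, or 38.9%, and 13 by window, or 72.2%, against 18.3% and 27.3% of all rows.

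Several complex IV subunits have isoforms that replace the broad form in particular tissues, and most of the restricted rows were lower than their partners. None of the 8 restricted isoform rows reached 50 RPKM in any library, while each of the 7 broad partner rows did so in at least 1. Of all rows 88.3% stayed under 50 RPKM in all 3 libraries, so the 0 of 8 is near the background. Of the heart and skeletal muscle forms, Cox6a2 held 0.0419, 0.0137 and 0 RPKM, Cox7a1 held 16.0, 2.001 and 1.42 RPKM and Cox8b held 47.6, 5.96 and 7.51 RPKM. Their broad partners Cox6a1, Cox7a2 and Cox8a are given above, and each exceeded its muscle form in every library, Cox8a least so in replicate 1. Of the testis forms, Cox8c was listed at 0 throughout, Cox7b2 held 0.853, 0.594 and 0.256 RPKM and Cox6b2 held 6.18, 5.82 and 1.43 RPKM. Their broad partners Cox7b and Cox6b1 held 96.9, 0.727 and 76.5 RPKM and 38.0, 567 and 36.6 RPKM, so that Cox6b1 lay above Cox6b2 in every library while Cox7b in replicate 2 lay close to Cox7b2. The lung form Cox4i2 held 1.43, 0.978 and 1.70 RPKM, and it exceeded Cox4i1 in replicate 1, where 622 RPKM stood in the row below Cox4i1. Ndufa4l2, a relative of Ndufa4 induced by low oxygen, held 8.17, 10.02 and 9.76 RPKM and was the 1 restricted isoform to pass by own row (limma, adjusted p = 0.00451). It did not pass without replicate 2 (0.0504) or replicate 3 (0.0589), or at a level of 5 RPKM (0.0813), by the same adjusted p. The 1 of 8, or 12.5%, is near the 18.3% of all rows.

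Windows separated the isoforms less cleanly. All 7 broad partners had 100 RPKM or more within 5 rows in every library, with medians of 534, 519 and 491 RPKM. Of the 8 restricted isoforms 2 did, Cox6a2 and Ndufa4l2, or 25.0%, where 15.5% of all rows did. The 8 rows are too few to set against that share. The windowed medians of the 8 were 51.3, 67.2 and 68.5 RPKM, above the 43.5, 41.8 and 42.4 RPKM of all rows. Cox6a2 had 108, 109 and 110 RPKM nearby, at 1 to 4 rows, in a window that also covers other genes. The muscle marker row Ckm held 0.981, 1.08 and 0.883 RPKM and Myh6 held 27.9, 18.2 and 17.7 RPKM. Of the 4 muscle markers 2 passed by own row, Acta1 and Myh6, a count too small to set against the 18.3% of all rows. The 4 markers summed to 34.8, 40.9 and 26.7 RPKM. Tnni3 was listed at 0 in replicate 1, and any part of muscle RNA in the isoform rows was not tested.

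**Figure D3:**
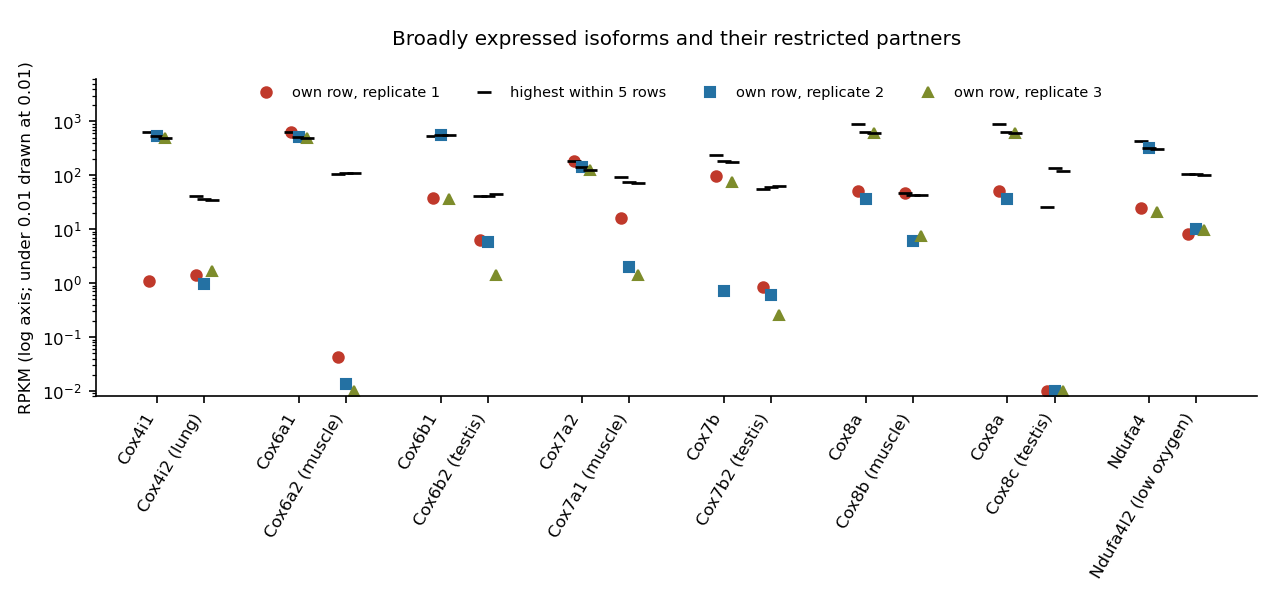
RPKM (y axis, log scale) of broadly expressed isoforms and of their restricted partners in lung, muscle, testis or low oxygen (x axis); coloured points are own-row values of the 3 libraries and black dashes the highest values within 5 rows. Each restricted form lies below 50 RPKM at its own row, and the broad forms reach 183 to 646 RPKM in at least 1 library except Cox7b, which reaches 96.9 RPKM.

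Complex V, the ATP synthase, had the highest windowed median of the 5 complexes, 190.4 ± 8.44 RPKM (SD, n = 3). The order was not tested, and with windows of 10 rows complex IV was higher, at 244.6 against 205.9 RPKM. By own row 5 of its 17 rows passed, or 29.4%, where 18.3% of all rows did. By window 13 passed, or 76.5%, where 27.3% of all rows did. Atp5j held 199, 160 and 152 RPKM and Atp5f1, the peripheral stalk subunit b, held 170, 146 and 135 RPKM, both highest at their own row in every library. The catalytic beta subunit row Atp5b was listed at 0 in all 3 libraries, with 586, 521 and 504 RPKM in the row just above it. The alpha subunit row Atp5a1 held 9.53, 320 and 12.7 RPKM, and 339, 320 and 12.9 RPKM within 5 rows. Atp5k, subunit e, held 0.0800, 0.0877 and 398 RPKM, with 460 and 445 RPKM in the row below in replicates 1 and 2. The epsilon subunit row Atp5e held 22.7, 0.0298 and 16.2 RPKM, with 277, 208 and 191 RPKM nearby, and Atp5o, which joins the stalk to the catalytic head, held 0.295, 24.9 and 0.158 RPKM, with 246, 196 and 183 RPKM always 2 rows above. Atp5l, subunit g, was high at its own row in replicate 1 alone, at 262 RPKM, and listed at 0 in the others, with 189 and 168 RPKM 3 or 4 rows above. The gamma and delta subunit rows Atp5c1 and Atp5d were low in replicate 1 alone, at 3.36 and 12.1 RPKM, against 134 and 126 RPKM and 145 and 136 RPKM in replicates 2 and 3. High values thus stood close to most ATP synthase rows, in all 3 libraries, often beside them.

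Subunit c of the rotor ring is encoded by 3 genes whose mature proteins are identical. Atp5g1 held 44.3, 22.9 and 141 RPKM, Atp5g2 held 194, 2.80 and 188 RPKM and Atp5g3 held 1.78, 0 and 0 RPKM. Across windows Atp5g1 had 197, 158 and 184 RPKM, Atp5g2 had 194, 183 and 188 RPKM and Atp5g3 had 46.6, 343 and 326 RPKM. By own row Atp5g3 was the lowest of the 3 in every library, and no other order held in every library on either reading. Atp5s and Atp5sl, named for the synthase but not among its subunits, were low, with 11.3, 6.14 and 5.64 RPKM and 0.200, 0.127 and 14.5 RPKM. Their windows were among those that did not pass.

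The 9 assembly factor rows, for proteins that build complexes I and II but are not part of them, had median own-row values of 20.2, 11.6 and 10.9 RPKM. By own row 6 of 9 passed, or 66.7%, where 18.3% of all rows did, and by window 2 of 9, or 22.2%, which is near the 27.3% of all rows. Such shares over 9 rows are imprecise. The own-row calls of Ndufaf2, Ndufaf3 and Sdhaf1 held with each library left out in turn. Those of Ndufaf1, Ndufaf4 and Sdhaf2 did not, and these rows also did not pass at a level of 5 RPKM. Ndufaf4 held 8.78, 8.92 and 8.63 RPKM, Ndufaf2 held 19.1, 16.9 and 17.4 RPKM and Sdhaf1 held 20.2, 18.1 and 18.7 RPKM. Sdhaf2 held 7.22, 11.6 and 10.9 RPKM, and the lowest by mean, Ndufaf7, held 1.001, 0.926 and 8.995 RPKM. Ndufaf5 had the highest mean, resting on 1 library, with 37.9, 579 and 8.93 RPKM and 612 RPKM 2 rows above in replicate 3. The windowed medians were 51.9, 38.0 and 61.2 RPKM for assembly factors, against 43.5, 41.8 and 42.4 RPKM over all rows. For the 77 members that are neither assembly factors nor restricted isoforms they were 171, 146 and 135 RPKM. Of these 77, 65 passed by window, or 84.4%, where 27.3% of all rows did.

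Replicate 1 held the highest value more often in member rows than over all rows of the table. In the 13 members whose libraries lay within 1.5-fold at the own row, replicate 1 was highest in all 13, against 56.6% of the 1005 rows of the table that met this. The median ratio of replicate 1 to replicate 2 was 1.24 in these members, ranging from 1.03 to 1.43, and 1.049 in all such rows. The median ratio of replicate 2 to replicate 3 was 1.048 in the members and 1.01 in all such rows. Ratios over all such rows were 1.10 for 60 loci under 2 kb and 1.021 for 340 loci of 30 kb or more. For loci of 10 to 30 kb the medians were 1.21 in 5 members and 1.04 in 334 rows. Across windows with 50 RPKM or more in every library, replicate 1 was highest in 65 of 75 members, or 86.7%, against 64.8% of all rows. The median ratio of replicate 1 to 2 was 1.22 in the members and 1.09 in all rows. Among the 40 other genes of oxidative metabolism described below, replicate 1 was highest in 26 of 28 such windows, or 92.9%. Their median ratio of replicate 1 to 2 was 1.16, so a high replicate 1 was not particular to members. This is a difference between 1 animal's library and the others and has no replicate check, and the part of locus length in it was not tested.

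**Figure D4:**
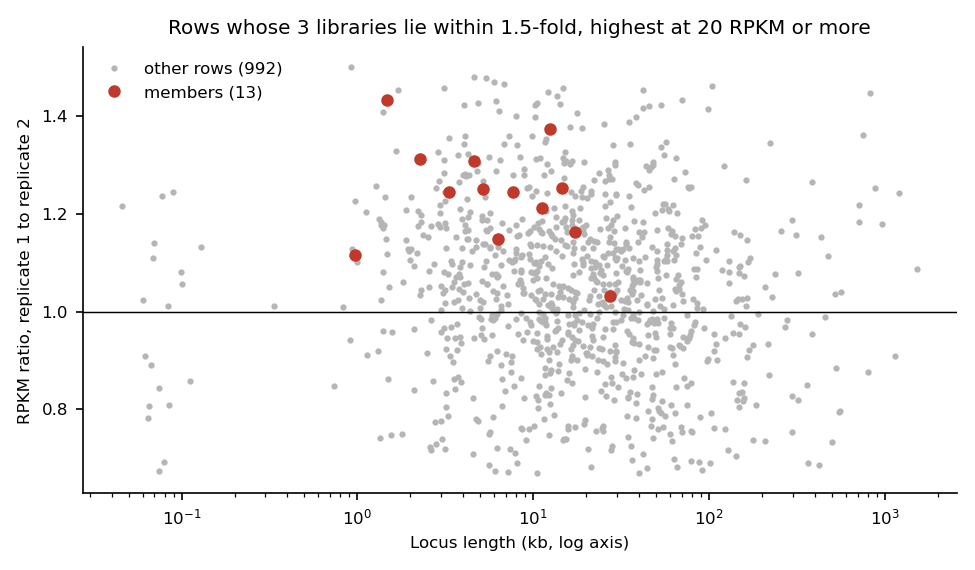
Ratio of replicate 1 to replicate 2 in RPKM (y axis) against the length of the locus in kb (x axis, log scale) for rows whose 3 libraries lie within 1.5-fold with the highest at 20 RPKM or more; red points are the 13 members, grey points the other rows. All members lie above 1, between 1.03 and 1.43, whereas the grey points lie on both sides of 1.

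Genes that serve the chain without being members had a mean own-row median of 16.4 RPKM, against 15.2 RPKM for the members, and a lower windowed one, 84.1 against 124.6 RPKM. Of 40 other genes of oxidative metabolism, 18 passed by own row, or 45.0%, and 22 by window, or 55.0%, against 18.3% and 27.3% of all rows. Atpif1, the inhibitor of the ATP synthase, had the highest mean, with 291, 227 and 212 RPKM at its own row. Vdac1, the outer membrane channel, held 0, 223 and 216 RPKM, and Slc25a4, an adenine nucleotide carrier, held 6.61, 432 and 0 RPKM. All 6 carrier and channel genes passed by window, where 27.3% of all rows did. By own row 1 of the 6 passed, or 16.7%, near the 18.3% of all rows. Of the 22 windows that passed, 3 took a member's own value as their highest: Cox15 that of Ndufb8 and Gabpa that of Atp5j in every library, and Vdac1 that of Uqcrq in replicates 2 and 3. Of 5 regulators of nuclear mitochondrial genes 2 passed by window, or 40.0%, and 4 by own row, or 80.0%, few genes for such a share. Among them the Nrf1 row, which encodes NRF1, held 5.26, 4.93 and 4.84 RPKM, Gabpa held 5.23, 6.02 and 6.31 RPKM and Tfam, the mitochondrial transcription factor, held 9.84, 9.28 and 9.50 RPKM. The exception was the coactivator row Ppargc1a, at 0.0431, 2.61 and 2.78 RPKM.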

How the data were processed

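RNA of microdissected dentate gyrus was sequenced in 3 libraries, each from 1 mouse, per the labels' protocols. The authors deposited RPKM values, made with TopHat2 and Cufflinks on mm9, per the submitters' processing notes; their versions, the annotation and any filter were not given in the sources used here. A further 9 value columns match no listed sample and were not used. Members were found by symbol prefix. For each row the highest value among the row and 5 rows on either side, on the same chromosome, was taken. Own-row values were tested against 1 RPKM and windowed values against 50 RPKM with limma 3.58.1 in R 4.3.3, on log2(RPKM + 1), with an intercept-only model, variance trend, one-sided p and Benjamini-Hochberg adjustment over all 24458 rows (adjusted p under 0.05). The test asks whether the mean over libraries lies above the level, given the spread between them, and not whether the libraries agree. Rows uneven between libraries can pass, such as Cox6b1 at 38.0, 567 and 36.6 RPKM. All rows stand in for random rows. Fits were tested on simulated rows with a small spread between libraries and no displaced values, and windows on a short made-up series. Neither covers rows as uneven between libraries as many described here. Depth is unknown, so no counting intervals are given.

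Named rows were all complex II rows, the 4 highest and 4 lowest by own-row mean and the 3 with the largest gap to the window in each complex, isoforms and assembly factors; the core subunits of complex I, rows alike in all libraries and a few others were added after their values were seen. Members and lists were chosen with earlier results of these data known. Of the listed symbols 4 are not in the table. The loci of 13 members overlap another row's locus, so their reads may be shared. Alternatives were other windows, levels, pseudocount, filters, scaling and leaving out each library. Some rows are not reported here by name, but they are part of the counts and medians.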

Additional observations from a re-analysis of the deposited data

How the results depend on the processing

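Counts of members above a level and at the place of the highest value stayed within 1.5 times under 20 alternatives and moved under 4. The count of own rows that passed was 17 at a level of 5 RPKM, where 8.34% of all rows passed, and ranged from 19 (without replicate 3, 10.8% of all rows) to 37 with a library left out, against 34 and 18.3%. The windowed count was 34 at a level of 100 RPKM, where 10.9% of all rows passed, and ranged from 46 (without replicate 2, 18.8% of all rows) to 74 with a library left out, against 70 and 27.3%. In windows taken in genomic order 49 passed, where 18.7% of all rows did. The windowed member median was 110.0 RPKM with 2 rows and 149.4 RPKM with 10 rows on each side, against 124.6 RPKM, as narrower windows hold fewer rows by construction. Single members that passed by own row still passed in 245 refits and did not in 61, and none changed direction. No paired analysis was possible because all 3 libraries belong to 1 group. Without read counts, the limits set by depth are unknown.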
